A study of Mus musculus with 6 samples.

Results

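The genes described here are 49 members of TGF-beta, activin and BMP signalling in mouse oesophageal squamous cell carcinoma. They were taken from a given list of symbols, out of 41253 gene symbols in the deposited read counts, and comprise 14 ligands and ligand subunits, 4 latent TGF-beta binding proteins, the protease Bmp1, 11 receptors and co-receptors, 6 secreted antagonists and follistatin-like proteins, 8 SMADs, 4 Id genes and the matrix target Tgfbi. All 49 passed the filter on low counts that left 17663 genes for testing.

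Tumours were compared between mice labelled Ptpro-KO, with genotype Ptpro-/-, and mice labelled WT, with genotype Ptpro+/+, all on the C57BL/6 strain, with 3 mice and 1 RNA library each. Both genotypes drank the carcinogen 4-nitroquinoline 1-oxide (4NQO) from 6 weeks of age for 16 weeks and were followed for up to a further 12 weeks. The design text puts the mice at 34 weeks, while an age tag says week 6, which is the week at which 4NQO began and so not the age at sampling. As follow-up ran for up to 12 weeks, the exact age of each mouse at sampling is not settled by the labels. RNA came from tumour tissue with no sorting step given in the labels, and the sources used here do not say which part of Ptpro the knockout removes.

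Signalling by this family starts when a dimeric ligand brings together type II and type I receptor kinases, which phosphorylate receptor SMADs that enter the nucleus with SMAD4. TGF-beta and activin act through SMAD2 and SMAD3, while BMPs act through SMAD1, SMAD5 and SMAD9 and switch on the Id genes. TGF-beta is secreted in a latent form held in the matrix by latent TGF-beta binding proteins, and antagonists such as noggin, gremlin and follistatin trap ligands outside the cell. In squamous epithelium TGF-beta is known as a growth inhibitor, and in the stroma of carcinomas as an inducer of matrix genes.

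Ptpro itself, a receptor-type tyrosine phosphatase, did not follow the labels. In counts scaled to a common library total (CPM, on library sizes adjusted by the TMM method) it had 30.3, 42.8 and 50.6 CPM in libraries labelled Ptpro-KO, against 5.05, 0.359 and 2.38 CPM in those labelled WT. All 3 libraries labelled Ptpro-KO were above all 3 labelled WT (log2 fold change 3.97, SE 0.85, edgeR adjusted p = 0.0617), so every direction below is one between labels, and the genotype behind each label was not settled by the data.

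Library totals lay between 35551442 and 39827467 reads for the libraries labelled Ptpro-KO and between 25745240 and 37595506 reads for those labelled WT. The tissue of both labels held squamous markers, whose summed level over 8 genes led by the basal keratin Krt14 was 12044 to 19656 CPM in libraries labelled Ptpro-KO and 36293 to 45983 CPM in those labelled WT. Markers of simple epithelium, 5 genes led by Krt7, summed to 1055 to 2116 CPM in libraries labelled Ptpro-KO and 37.8 to 83.7 CPM in those labelled WT. The 8 fibroblast markers, led by Col3a1, summed to 4212, 4680 and 2985 CPM in libraries labelled Ptpro-KO, against 1905, 365 and 851 CPM in those labelled WT. The 7 macrophage markers, led by Mrc1, summed to 555 to 1087 CPM in libraries labelled Ptpro-KO and 80.3 to 334 CPM in those labelled WT. Endothelial markers overlapped between labels. So did the 5 smooth muscle markers, led by Des, at 1049 to 3298 CPM in libraries labelled Ptpro-KO and 248 to 1393 CPM in those labelled WT. All 5 had positive fold changes with a median of 1.56 on the log2 scale, and 0 were called. The 6 skeletal muscle markers, led by Acta1, varied within each label, summing to 8195, 3393 and 68.0 CPM in libraries labelled Ptpro-KO and 7808, 52.8 and 5434 CPM in those labelled WT. Stomach markers summed to 16206 CPM in Ptpro-KO replicate 3, against 32.9 and 4.76 CPM in Ptpro-KO replicates 1 and 2 and at most 0.797 CPM in any library labelled WT, where Pgc, Gkn2 and Muc6 had 0 reads. Thyroid markers summed to 782 CPM in Ptpro-KO replicate 2, against 4.68 and 26.6 CPM in replicates 1 and 3 and at most 1.89 CPM in libraries labelled WT. The squamous, simple-epithelium, fibroblast, macrophage, stomach and thyroid lists move with the label and so with each difference given below. Their part in any of these differences was not tested. These are bulk libraries, in which fewer cells of a type and less RNA per cell cannot be told apart.

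**Figure D1:**
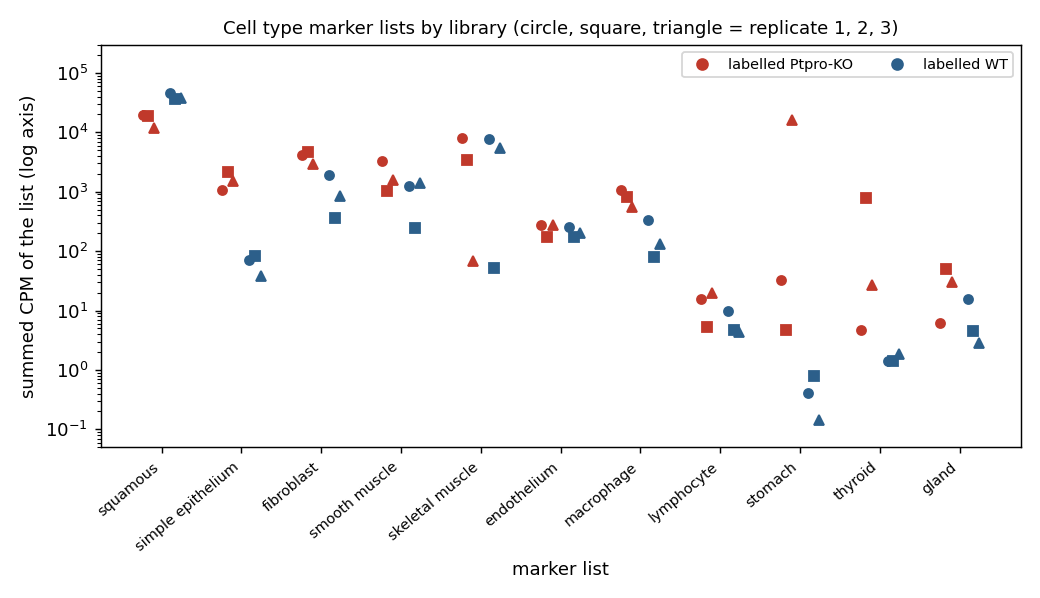
Summed level of each fixed marker list in each library, in CPM on a log axis, with Ptpro-KO-labelled libraries placed before WT-labelled ones. Fibroblast, macrophage, simple-epithelium, stomach and thyroid lists are higher in all 3 libraries labelled Ptpro-KO, and the squamous list is lower in all 3. The stomach list reaches 16206 CPM in Ptpro-KO replicate 3 and the thyroid list reaches 782 CPM in Ptpro-KO replicate 2.

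Among the 49 genes, 4 passed the test, all of them higher under the Ptpro-KO label, namely the latent TGF-beta binding proteins Ltbp2, Ltbp3 and Ltbp4 and the TGF-beta type I receptor Tgfbr1. The test was edgeR's quasi-likelihood F-test with Benjamini-Hochberg adjustment over all 17663 genes and a threshold of 0.05 on the adjusted p. Of all genes tested, 4.10% passed it, 1.81% higher and 2.29% lower in libraries labelled Ptpro-KO. By edgeR none of the 49 was called lower, although 1, Tgfbi, had an unadjusted p below 0.05 in that direction and was called lower by DESeq2. DESeq2 called 11 of the 49 higher and 1 lower, where it called 9.12% of all genes with an adjusted p higher and 7.44% lower.

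At an unadjusted p below 0.05, 12 of the 49 were higher and 1 was lower, where 25.0% of all genes tested reached that level, split into 13.7% higher and 11.3% lower. All 3 libraries labelled Ptpro-KO lay above all 3 labelled WT for 10 of the 49 genes, Bmp5, Bmp6, Ltbp2, Ltbp3, Ltbp4, Tgfbr1, Acvr1, Grem1, Fstl1 and Id2, and below them for Tgfb2 and Tgfbi, and the labels overlapped for the other 37. Over all genes tested, 16.8% were separated upwards and 15.7% downwards. With 3 libraries on each side the exact permutation test cannot go below p = 0.1, so separation alone carries no call.

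The fold changes of the 49 genes leaned upwards, with 36 above zero and 13 below zero on the log2 scale of libraries labelled Ptpro-KO over those labelled WT. Their median was 0.38, beside 0.03 over all genes tested. By role, the median was 1.36 for the 6 antagonists and follistatin-like proteins, 0.99 for the 4 latent binding proteins, 0.48 for the 4 Id genes, 0.18 for the 14 ligands, 0.14 for the 8 SMADs and 0.11 for the 11 receptors and co-receptors. The members whose change was under 0.25 in size, 20 of the 49, are given by level alone, since 16 of them took another sign under at least 1 alternative setting and none of the other 29 did.

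Mouse sex, read from sex-linked transcripts, was not balanced, with 2 females and 1 male under the Ptpro-KO label and 1 female and 2 males under the WT label. With a term for sex in the edgeR fit, Ltbp2 was still called (adjusted p = 0.0421), while Ltbp3, Ltbp4 and Tgfbr1 were not (adjusted p of 0.0760, 0.0683 and 0.0678). The 4 calls also depended on single libraries, as did calls over all genes. With any 1 of Ptpro-KO replicates 1 and 2 or WT replicates 1, 2 and 3 left out, edgeR called 0 of the 49 higher. In those fits 7 to 12 of the 49 were higher at an unadjusted p below 0.05. Over all genes the same fits called 0 to 50 higher and 0 to 82 lower. They had 3078 to 4363 genes at an unadjusted p below 0.05, of 18004 to 18353 tested. Without Ptpro-KO replicate 3 edgeR called 2 of the 49, Ltbp3 and Tgfbr1, beside 253 genes higher and 243 lower in all. The fold changes themselves moved less, since the log2 fold change stayed between 2.03 and 2.56 for Ltbp2, 1.10 and 1.48 for Ltbp3, 0.63 and 0.80 for Ltbp4 and 0.59 and 0.76 for Tgfbr1 when each library was left out in turn.

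**Figure D2:**
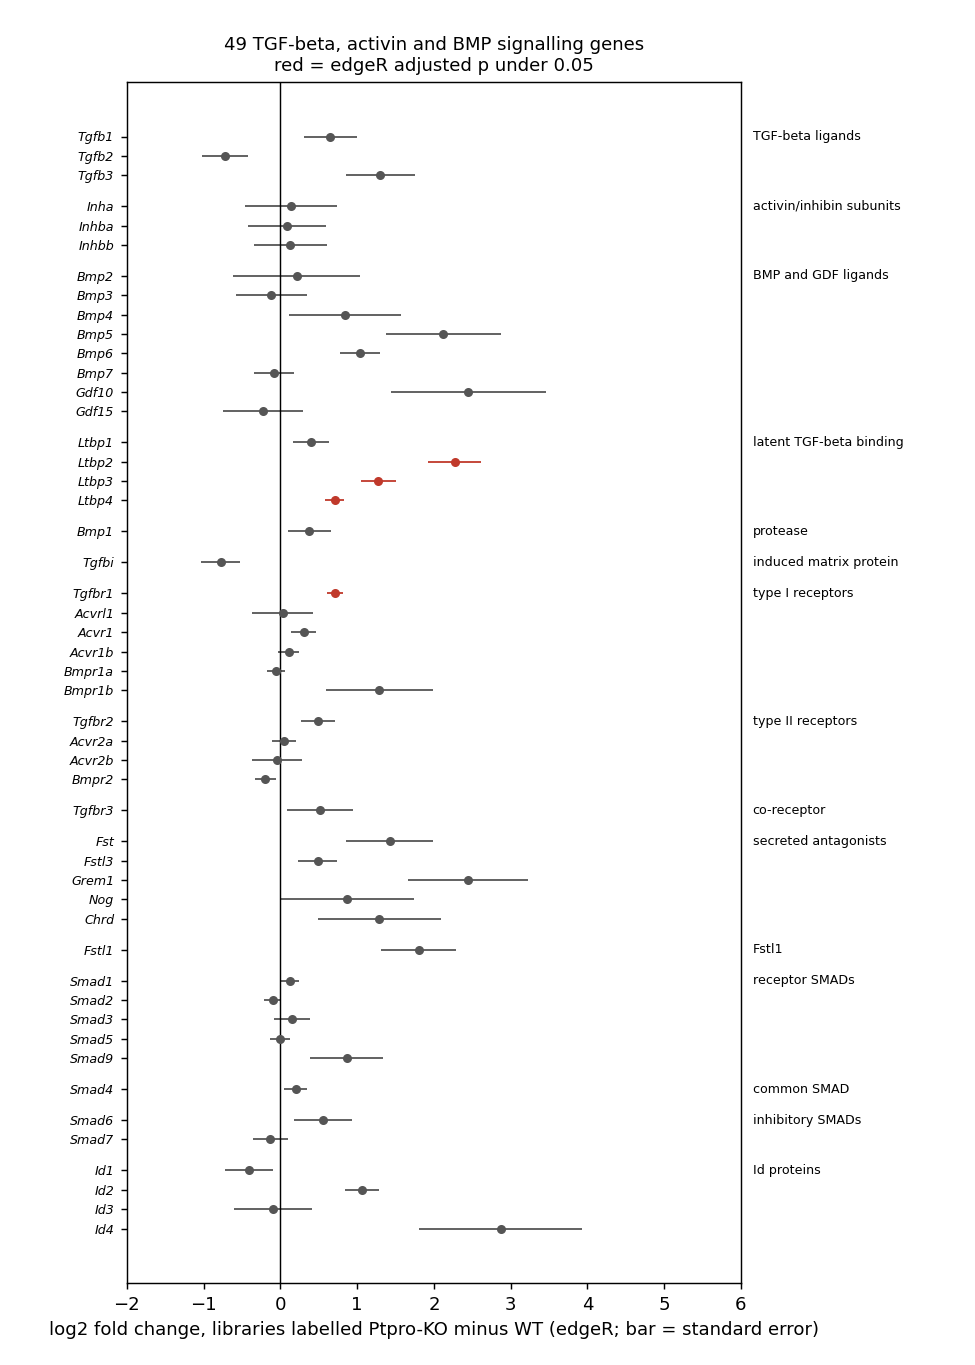
Log2 fold change of each of the 49 genes, libraries labelled Ptpro-KO over those labelled WT, with bars of 1 standard error from edgeR, grouped by role. The 4 genes past the adjusted threshold are Ltbp2, Ltbp3, Ltbp4 and Tgfbr1, and Id4, Grem1, Gdf10 and Bmp5 lie as far out as Ltbp2 or close to it but with wider bars.

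The latent binding proteins and the receptor kinase are the genes on which the result rests, and the region around the start of each is printed so that the sequence can be read beside the levels. Each is a window of 300 bases, 250 before and 50 after the start site nearest to the 5′ end of the gene's most abundant transcript, on the gene's strand, from RefSeq on GRCm38.p6. Capitals mark CAGAC or its reverse complement GTCTG, the SMAD-binding element, and GGCGCC, a GC-rich SMAD motif that is its own reverse complement.
Ltbp2, chr12:84876442-84876741, minus strand: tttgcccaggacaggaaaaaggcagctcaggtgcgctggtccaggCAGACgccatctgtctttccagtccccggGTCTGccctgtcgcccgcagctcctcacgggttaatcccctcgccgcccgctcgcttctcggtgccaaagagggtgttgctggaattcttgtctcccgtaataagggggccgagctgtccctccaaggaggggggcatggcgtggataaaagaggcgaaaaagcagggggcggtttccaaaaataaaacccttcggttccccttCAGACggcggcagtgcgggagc
Ltbp3, chr19:5740650-5740949, plus strand: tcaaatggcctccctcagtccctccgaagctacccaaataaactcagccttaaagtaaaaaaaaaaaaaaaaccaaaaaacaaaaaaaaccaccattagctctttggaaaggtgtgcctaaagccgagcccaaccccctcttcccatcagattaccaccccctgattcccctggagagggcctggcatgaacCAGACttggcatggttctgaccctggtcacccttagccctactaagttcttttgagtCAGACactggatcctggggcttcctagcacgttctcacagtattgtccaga
Ltbp4, chr7:27337563-27337862, minus strand: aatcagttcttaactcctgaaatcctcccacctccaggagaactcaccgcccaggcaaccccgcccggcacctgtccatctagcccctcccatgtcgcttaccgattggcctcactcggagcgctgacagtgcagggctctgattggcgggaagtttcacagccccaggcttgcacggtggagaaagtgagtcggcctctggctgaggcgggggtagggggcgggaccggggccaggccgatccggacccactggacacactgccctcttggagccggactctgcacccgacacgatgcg
Tgfbr1, chr4:47352972-47353271, plus strand: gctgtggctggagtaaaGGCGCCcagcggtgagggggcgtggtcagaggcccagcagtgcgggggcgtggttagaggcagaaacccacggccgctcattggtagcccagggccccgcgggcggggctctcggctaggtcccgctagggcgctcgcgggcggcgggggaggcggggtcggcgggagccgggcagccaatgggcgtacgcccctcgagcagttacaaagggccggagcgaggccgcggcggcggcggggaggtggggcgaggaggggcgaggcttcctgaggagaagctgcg

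The Ltbp2 window held 3 copies of CAGAC counted on both strands and the Ltbp3 window held 2, while the Ltbp4 and Tgfbr1 windows held none. GGCGCC occurred 1 time in the Tgfbr1 window and not in the other 3. Of all 32851 windows of this length in the table, 49.6% held CAGAC on either strand and 11.9% held GGCGCC, so both are common words in promoters. A match describes the letters only. Of the 49 genes, 36 have a window in that table, and Ltbp4 has 3 windows and Tgfbr1 has 2, of which 1 each is shown.

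Latent TGF-beta binding proteins tie the latent cytokine to fibrillin microfibrils, and 3 of the 4 rose. Ltbp2, which sits on chromosome 12 at 84783212 to 84876532 on the minus strand (GRCm38) and binds fibrillin without carrying TGF-beta itself, had 63.8, 36.1 and 50.3 CPM in libraries labelled Ptpro-KO, against 14.2, 6.66 and 10.2 CPM in those labelled WT. Its lowest library labelled Ptpro-KO was above its highest labelled WT, and the means were 50.1 ± 13.8 CPM in libraries labelled Ptpro-KO and 10.4 ± 3.79 CPM in those labelled WT (SD, n = 3 each). That is a 4.82-fold higher level (log2 fold change 2.27, SE 0.34, edgeR adjusted p = 0.0328). Among the libraries labelled WT, Ltbp2 was highest in replicate 1 and lowest in replicate 2. The summed squamous, fibroblast, macrophage, endothelial and skeletal muscle markers had the same order there. Among the libraries labelled Ptpro-KO, Ltbp2 was highest in replicate 1 and lowest in replicate 2. The endothelial and smooth muscle sums had that order too, the latter at 3298, 1049 and 1569 CPM in replicates 1, 2 and 3. The fibroblast sum was instead highest in Ptpro-KO replicate 2. Under the WT label the smooth muscle sum was lowest in replicate 2, as Ltbp2 was, but highest in replicate 3. All 8 fibroblast markers had positive fold changes, with 2 called. The part of these lists in the Ltbp2 level was not tested. 

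Ltbp3, which carries latent TGF-beta and lies on chromosome 19 at 5740904 to 5758532 on the plus strand, had 63.5, 70.9 and 40.1 CPM in libraries labelled Ptpro-KO, against 25.8, 23.0 and 23.2 CPM in those labelled WT. The 3 libraries labelled WT lay close together, and the 3 labelled Ptpro-KO were all above them but spread more widely. Its mean was 58.1 ± 16.1 CPM in libraries labelled Ptpro-KO and 24.0 ± 1.59 CPM in those labelled WT (SD, n = 3 each), a 2.42-fold higher level (log2 fold change 1.28, SE 0.22, edgeR adjusted p = 0.0428). Exons of Ltbp2 overlap D030025P21Rik on the opposite strand, so with strand not known reads of that pair cannot be told apart.

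Ltbp4, which carries latent TGF-beta 1 and is needed for elastic fibres, lies on chromosome 7 at 27305136 to 27337692 on the minus strand. It had 121, 122 and 138 CPM in libraries labelled Ptpro-KO, against 88.5, 70.3 and 74.3 CPM in those labelled WT. The labels did not overlap, and the spread within each label was smaller than the gap between them. The level was 1.63-fold higher (log2 fold change 0.71, SE 0.12, edgeR adjusted p = 0.0431).

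Ltbp1, the most studied carrier of latent TGF-beta 1, had 151, 140.1 and 82.6 CPM in libraries labelled Ptpro-KO, against 90.0, 91.4 and 102 CPM in those labelled WT. Ptpro-KO replicate 3 was the lowest of all 6 libraries while replicates 1 and 2 were the highest, so the labels overlapped and the gene did not pass (log2 fold change 0.40, SE 0.23, edgeR adjusted p = 0.350). A short Ltbp1 transcript of 519 bases took 15.1, 16.7 and 26.3% of its reads in libraries labelled Ptpro-KO, against 21.6, 22.6 and 22.2% in those labelled WT.

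On the authors' FPKM scale, which divides by length and so allows genes to be set side by side, the 4 binding proteins summed to 75.0, 71.5 and 61.1 FPKM in libraries labelled Ptpro-KO, against 41.5, 37.5 and 39.6 FPKM in those labelled WT. Ltbp4 was the most abundant of them under both labels, at 30.8 FPKM in libraries labelled Ptpro-KO and 19.6 FPKM in those labelled WT. Ltbp2 was the least abundant under both, and its share of the sum was 12.7, 7.87 and 12.6% in libraries labelled Ptpro-KO, against 5.19, 2.70 and 4.16% in those labelled WT. The most abundant transcript held 97.9% and 96.7% of the reads of Ltbp2, 97.4% and 96.9% of those of Ltbp4 and 79.8% and 76.05% of those of Ltbp1 in libraries labelled Ptpro-KO and WT.

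**Figure D3:**
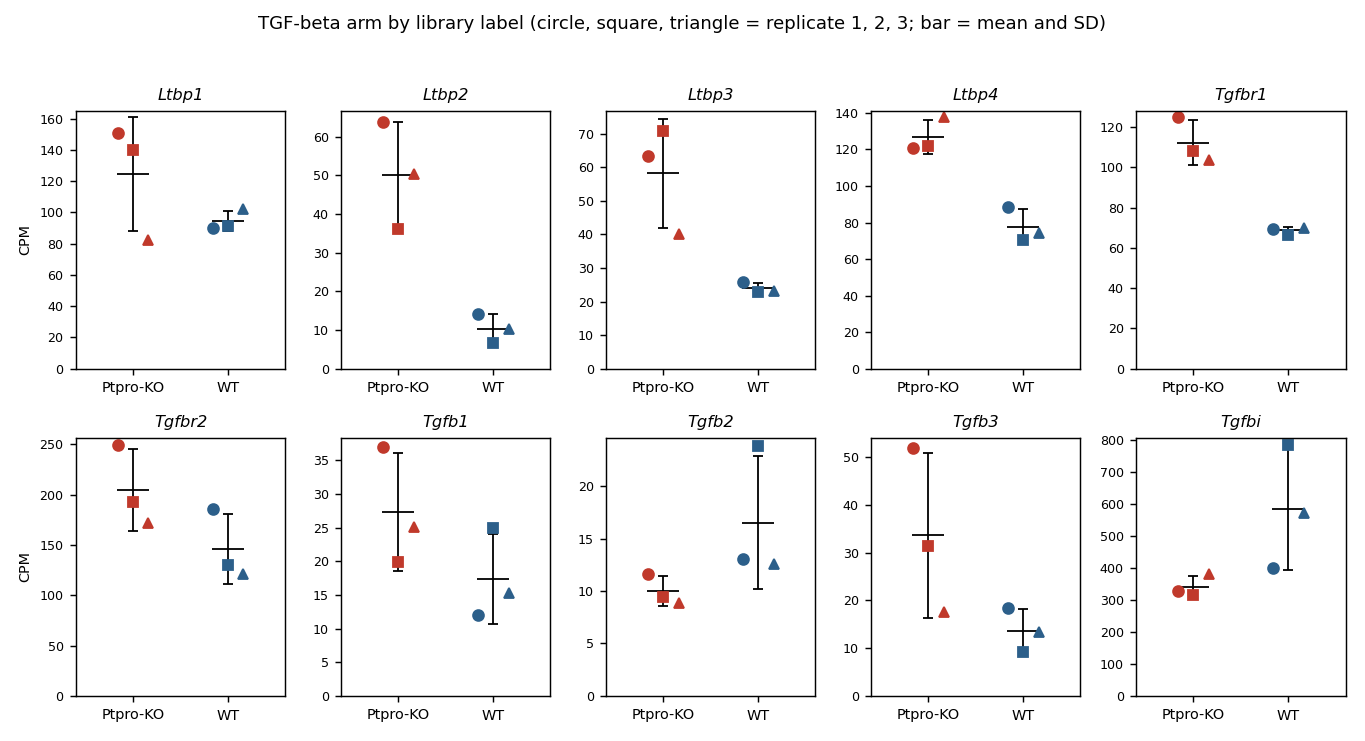
CPM of genes of the TGF-beta arm in each library, 1 panel per gene with a linear axis from 0, libraries labelled Ptpro-KO on the left and WT on the right, points for libraries and bars for the mean and SD of 3. Ltbp2, Ltbp3, Ltbp4 and Tgfbr1 have every Ptpro-KO-labelled point above every WT-labelled one, while Tgfbi and Tgfb2 have every such point below.

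Tgfbr1, the type I receptor kinase for TGF-beta that phosphorylates SMAD2 and SMAD3, lies on chromosome 4 at 47353222 to 47414931 on the plus strand. It had 125, 108 and 104 CPM in libraries labelled Ptpro-KO, against 69.5, 66.6 and 70.0 CPM in those labelled WT. The libraries labelled WT were within a few CPM of each other and the lowest library labelled Ptpro-KO was well above them. The level was 1.64-fold higher (log2 fold change 0.71, SE 0.10, edgeR adjusted p = 0.0315), and 95.5% of its reads in libraries labelled Ptpro-KO and 94.3% in those labelled WT came from 1 transcript.

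The other 10 receptors and co-receptors did not pass, and Tgfbr1 was the 1 among the 11 with an unadjusted p below 0.05. Tgfbr2, the type II partner that binds TGF-beta first, had 249.8, 192 and 172 CPM in libraries labelled Ptpro-KO, against 186, 130.3 and 121 CPM in those labelled WT. WT replicate 1 exceeded Ptpro-KO replicate 3, and the gene did not pass (log2 fold change 0.49, SE 0.22, edgeR adjusted p = 0.245). Tgfbr3, the co-receptor betaglycan that presents TGF-beta 2, had 63.1, 35.4 and 33.3 CPM in libraries labelled Ptpro-KO, against 45.3, 16.3 and 30.4 CPM in those labelled WT, and its labels overlapped (log2 fold change 0.52, SE 0.43, edgeR adjusted p = 0.500).

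Acvr1, a type I receptor for BMPs and activins also called ALK2, had 25.9, 23.6 and 21.3 CPM in libraries labelled Ptpro-KO, against 20.6, 21.2 and 15.6 CPM in those labelled WT. Its labels did not overlap, but the gap was a fraction of a CPM and the gene did not pass (log2 fold change 0.30, SE 0.16, edgeR adjusted p = 0.314). Bmpr1b, a BMP type I receptor with a low level, had 10.05, 5.35 and 8.93 CPM in libraries labelled Ptpro-KO, against 5.60, 0.717 and 3.60 CPM in those labelled WT. WT replicate 1 was above Ptpro-KO replicate 2 and the gene did not pass (log2 fold change 1.29, SE 0.70, edgeR adjusted p = 0.316), with a log2 fold change of 0.81 without WT replicate 2 and 1.90 without WT replicate 1.

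The remaining receptors had means that differed little beside their spread. Bmpr1a, the main BMP type I receptor of epithelia, averaged 133 ± 10.7 CPM in libraries labelled Ptpro-KO and 138 ± 12.2 CPM in those labelled WT (SD, n = 3 each). Bmpr2, the BMP type II receptor, averaged 195 ± 29.9 CPM in libraries labelled Ptpro-KO and 223 ± 9.68 CPM in those labelled WT (SD, n = 3 each). Acvr1b, the activin type I receptor also called ALK4, averaged 70.1 ± 8.79 CPM in libraries labelled Ptpro-KO and 65.0 ± 6.95 CPM in those labelled WT (SD, n = 3 each).
The labels overlapped for all of these, as they did for the lower receptors. Acvr2a, an activin type II receptor, averaged 39.5 ± 7.51 CPM in libraries labelled Ptpro-KO and 38.1 ± 1.96 CPM in those labelled WT (SD, n = 3 each). Its relative Acvr2b averaged 2.65 ± 0.939 CPM in libraries labelled Ptpro-KO and 2.74 ± 0.466 CPM in those labelled WT (SD, n = 3 each). Acvrl1, the type I receptor of endothelium also called ALK1, averaged 17.03 ± 6.65 CPM in libraries labelled Ptpro-KO and 16.7 ± 7.11 CPM in those labelled WT (SD, n = 3 each), and its 6 endothelial companion markers also overlapped, with sums of 176 to 278 CPM in libraries labelled Ptpro-KO and 171 to 256 CPM in those labelled WT.

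The 3 TGF-beta genes differed in direction, and edgeR called none of them at the adjusted threshold, with 1 at an unadjusted p below 0.05. Tgfb1, the isoform with the highest mean FPKM under both labels, had 37.1, 19.8 and 25.1 CPM in libraries labelled Ptpro-KO, against 12.1, 24.9 and 15.3 CPM in those labelled WT. The labels overlapped through Ptpro-KO replicate 2 and WT replicate 2 (log2 fold change 0.65, SE 0.35, edgeR adjusted p = 0.310). Tgfb3, an isoform of mesenchyme and of wound edges, had 51.9, 31.3 and 17.5 CPM in libraries labelled Ptpro-KO, against 18.3, 9.09 and 13.5 CPM in those labelled WT. Ptpro-KO replicate 1 was far above the rest and Ptpro-KO replicate 3 fell just under WT replicate 1 (log2 fold change 1.30, SE 0.45, edgeR adjusted p = 0.147), and DESeq2 called the gene higher. Tgfb2, the isoform that depends most on betaglycan, had 11.7, 9.48 and 8.88 CPM in libraries labelled Ptpro-KO, against 13.1, 23.9 and 12.6 CPM in those labelled WT. Every library labelled Ptpro-KO was below every library labelled WT, with WT replicate 2 standing well above the other libraries, and the gene did not pass (log2 fold change -0.72, SE 0.30, edgeR adjusted p = 0.201).

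As a share of the summed FPKM of the 3 isoforms, Tgfb2 made up 6.72, 9.47 and 9.13% in libraries labelled Ptpro-KO, against 18.6, 23.2 and 17.4% in those labelled WT. The shares of the labels did not overlap, with means of 8.44 ± 1.498% and 19.7 ± 3.03% in libraries labelled Ptpro-KO and WT (SD, n = 3 each). Tgfb1 made up 56.2 ± 8.93% of the sum in libraries labelled Ptpro-KO and 55.6 ± 9.54% in those labelled WT.

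Tgfbi, a secreted matrix protein named for its induction by TGF-beta, was the most abundant of the 49 genes under both labels, at 165 ± 15.01 FPKM in libraries labelled Ptpro-KO and 288 ± 98.1 FPKM in those labelled WT (SD, n = 3 each). In CPM it had 326, 317 and 381 CPM in libraries labelled Ptpro-KO, against 401, 783 and 572 CPM in those labelled WT. Each library labelled Ptpro-KO was below each labelled WT, and the difference of -0.78 on the log2 scale (SE 0.26) missed the edgeR threshold with adjusted p = 0.137. Bmp1, a procollagen protease that frees TGF-beta from latent complexes and is no BMP by structure, had 130.3, 133 and 80.9 CPM in libraries labelled Ptpro-KO, against 72.5, 118 and 73.9 CPM in those labelled WT, with overlapping labels (log2 fold change 0.38, SE 0.28, edgeR adjusted p = 0.450).

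No activin or inhibin subunit gene passed by edgeR or DESeq2, and none of the 3 had an unadjusted p below 0.05. Inhba, the beta A subunit of activin A, had 47.1, 27.3 and 20.2 CPM in libraries labelled Ptpro-KO, against 43.0, 33.4 and 12.8 CPM in those labelled WT, and the 2 ranges lay over each other. Inhbb, the beta B subunit, had 12.4, 27.1 and 25.1 CPM in libraries labelled Ptpro-KO, against 12.5, 32.8 and 13.9 CPM in those labelled WT, and Inha, the alpha subunit that makes an inhibin of either, had 1.41, 5.77 and 1.58 CPM in libraries labelled Ptpro-KO, against 2.26, 3.15 and 2.56 CPM in those labelled WT. Here the highest and the lowest library of Inha both carried the Ptpro-KO label.

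Fst, follistatin, which binds activins and blocks their receptor contact, had 74.1, 221 and 151 CPM in libraries labelled Ptpro-KO, against 44.5, 93.1 and 28.0 CPM in those labelled WT. Ptpro-KO replicate 1 was below WT replicate 2, so the labels overlapped, and the gene did not pass although its mean was 2.69-fold higher (log2 fold change 1.43, SE 0.57, edgeR adjusted p = 0.189). Its log2 fold change was 1.00 without Ptpro-KO replicate 2 and 2.03 without WT replicate 2. The ratio of Fst to Inhba on the FPKM scale was 0.908, 4.80 and 4.37 in libraries labelled Ptpro-KO, against 0.575, 1.61 and 1.23 in those labelled WT, so Ptpro-KO replicate 1 fell among the WT-labelled values here too. Fstl3, a follistatin relative with the same ligands, had 12.0, 9.60 and 16.1 CPM in libraries labelled Ptpro-KO, against 10.6, 9.01 and 7.33 CPM in those labelled WT, with overlap (log2 fold change 0.48, SE 0.26, edgeR adjusted p = 0.303).

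Among BMP and GDF ligands the fold changes were largest for genes of low level, and edgeR called none of the 8, with 2 at an unadjusted p below 0.05 and 2, Bmp5 and Bmp6, called higher by DESeq2. Bmp6 had 4.29, 7.46 and 5.61 CPM in libraries labelled Ptpro-KO, against 2.61, 3.11 and 2.74 CPM in those labelled WT. All 3 libraries labelled Ptpro-KO exceeded all 3 labelled WT, at a 2.05-fold higher level (log2 fold change 1.04, SE 0.26, edgeR adjusted p = 0.0862). Bmp5 had 2.16, 2.42 and 12.3 CPM in libraries labelled Ptpro-KO, against 1.42, 1.16 and 1.28 CPM in those labelled WT. The labels were again apart, but Ptpro-KO replicate 3 carried most of the difference (log2 fold change 2.12, SE 0.75, edgeR adjusted p = 0.154), and without that library the log2 fold change was 0.83.

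Ptpro-KO replicate 3 was also the library with the highest Bmp2 and Bmp4, ligands of mesenchyme and epithelium that act through BMPR1A. Bmp4 had 6.86, 1.90 and 13.2 CPM in libraries labelled Ptpro-KO, against 6.50, 2.51 and 3.24 CPM in those labelled WT, and its log2 fold change of 0.84 (SE 0.73, edgeR adjusted p = 0.522) was 0.10 without that library. Bmp2 had 2.93, 2.06 and 17.4 CPM in libraries labelled Ptpro-KO, against 6.32, 7.69 and 5.38 CPM in those labelled WT. That same library was the 1 with 16206 CPM of summed stomach markers, and the part of that tissue signal in the BMP ligand values was not tested.

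Gdf10, a TGF-beta family ligand also known as BMP3B, was the least abundant of the 49 genes under both labels on the FPKM scale. It had 2.35, 0.211 and 0.949 CPM in libraries labelled Ptpro-KO, against 0.261, 0.0399 and 0.320 CPM in those labelled WT, from 85, 9 and 36 reads in libraries labelled Ptpro-KO and 9, 1 and 9 reads in those labelled WT. Ptpro-KO replicate 2 lay below WT replicate 3, and the gene did not pass (log2 fold change 2.45, SE 1.01, edgeR adjusted p = 0.204). Without Ptpro-KO replicate 1 its log2 fold change was 1.41.

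Bmp7, a BMP of epithelia, averaged 19.5 ± 4.96 CPM in libraries labelled Ptpro-KO and 20.7 ± 5.14 CPM in those labelled WT (SD, n = 3 each). Bmp3, a BMP that antagonises the osteogenic ones, averaged 4.61 ± 2.05 CPM in libraries labelled Ptpro-KO and 4.99 ± 1.91 CPM in those labelled WT (SD, n = 3 each). Gdf15, a stress-induced cytokine of the family that signals through GFRAL and not through SMAD-coupled receptors, averaged 0.548 ± 0.265 CPM in libraries labelled Ptpro-KO and 0.644 ± 0.325 CPM in those labelled WT (SD, n = 3 each). The labels overlapped for each of these genes.

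All 6 antagonists and follistatin-like genes had positive fold changes, and none passed by edgeR, while 3 had an unadjusted p below 0.05 and DESeq2 called 2 of them, Grem1 and Fstl1, higher. Grem1, gremlin 1, a BMP antagonist made by stromal cells, had 108, 31.7 and 189.7 CPM in libraries labelled Ptpro-KO, against 29.1, 7.29 and 23.9 CPM in those labelled WT. Its lowest library labelled Ptpro-KO was only slightly above its highest labelled WT, and libraries of 1 label differed several-fold (log2 fold change 2.45, SE 0.78, edgeR adjusted p = 0.129). Its log2 fold change was 1.80 without Ptpro-KO replicate 3 and 2.88 without Ptpro-KO replicate 2. Fstl1, a secreted glycoprotein of mesenchyme, had 304, 393 and 196 CPM in libraries labelled Ptpro-KO, against 144, 45.7 and 66.4 CPM in those labelled WT. All Ptpro-KO-labelled values were above all WT-labelled ones, at a 3.48-fold higher level that did not pass (log2 fold change 1.80, SE 0.49, edgeR adjusted p = 0.0969). With each library left out in turn, its log2 fold change lay between 1.49 and 2.40, the highest being without WT replicate 1.

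Fstl1 was the second most abundant of the 49 genes in libraries labelled Ptpro-KO, at 96.3 FPKM, and stood at 25.8 FPKM and rank 9 in those labelled WT. Under the WT label Fstl1 and Grem1 were both highest in replicate 1 and lowest in replicate 2, whose fibroblast sum was 365 CPM. The squamous, fibroblast, macrophage, endothelial and skeletal muscle sums had that order too. Under the Ptpro-KO label Grem1 was lowest in replicate 2, with a fibroblast sum of 4680 CPM, and highest in replicate 3, with 2985 CPM. Fstl1 was highest in Ptpro-KO replicate 2 and lowest in Ptpro-KO replicate 3. The part of any list in these values was not tested. Nog, noggin, which binds BMP2 and BMP4, had 2.60, 2.72 and 0.369 CPM in libraries labelled Ptpro-KO, against 1.94, 0.399 and 0.748 CPM in those labelled WT, and Chrd, chordin, had 6.01, 6.40 and 2.87 CPM in libraries labelled Ptpro-KO, against 3.68, 0.319 and 2.21 CPM in those labelled WT. Both overlapped between labels, Ptpro-KO replicate 3 being the lowest of all 6 libraries for Nog (log2 fold change 0.87, SE 0.87, edgeR adjusted p = 0.585) and lying below WT replicate 1 for Chrd (log2 fold change 1.29, SE 0.81, edgeR adjusted p = 0.378). Leaving out WT replicate 2 gave a log2 fold change of 0.48 for Nog and 0.78 for Chrd, and leaving out WT replicate 1 gave 1.71 for Nog and 1.997 for Chrd. Both genes were lowest of their label in Ptpro-KO replicate 3 and WT replicate 2. The summed squamous, fibroblast, macrophage and skeletal muscle markers were lowest in the same libraries, and their part in these values was not tested.

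**Figure D4:**
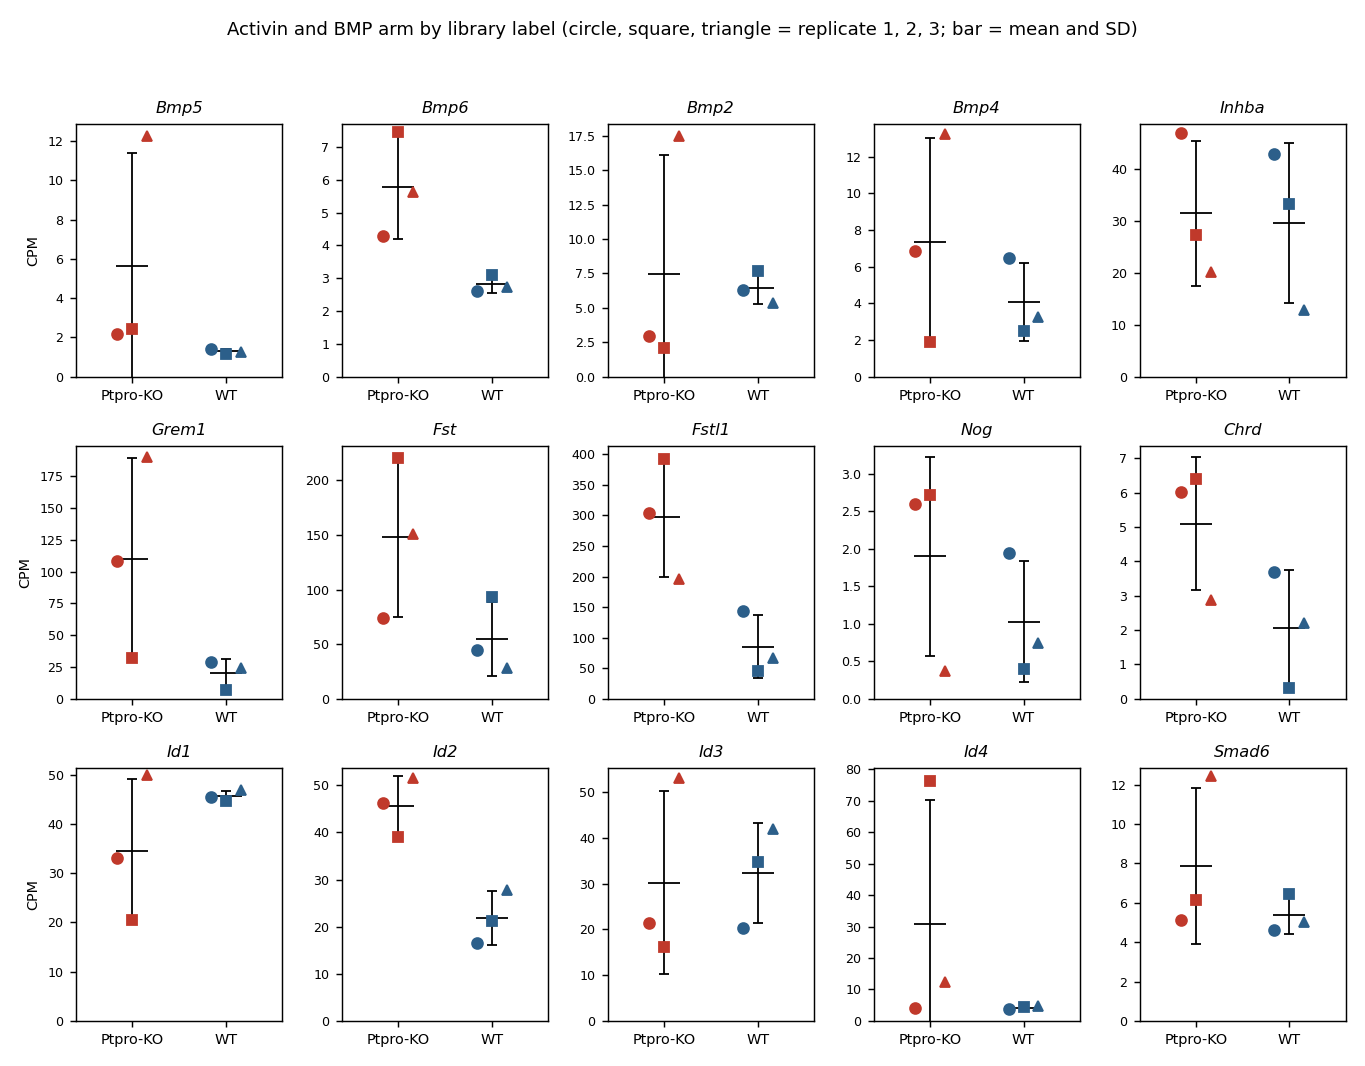
CPM of genes of the BMP and activin arm in each library, 1 panel per gene with a linear axis from 0, libraries labelled Ptpro-KO on the left and WT on the right, points for libraries and bars for the mean and SD of 3, with lower bar ends cut at 0. Bmp5 is carried by Ptpro-KO replicate 3 and Id4 by Ptpro-KO replicate 2, whereas Bmp6 and Id2 are higher in all 3 libraries labelled Ptpro-KO.

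No SMAD gene was called. None of the 8 passed by edgeR or DESeq2, none had an unadjusted p below 0.05, and the labels overlapped for all 8. Smad2, a receptor SMAD of TGF-beta and activin, averaged 51.7 ± 5.14 CPM in libraries labelled Ptpro-KO and 55.3 ± 2.38 CPM in those labelled WT (SD, n = 3 each), and Smad3, the other of that pair, averaged 65.7 ± 14.6 CPM in libraries labelled Ptpro-KO and 59.3 ± 14.0 CPM in those labelled WT (SD, n = 3 each). Smad1 and Smad5, receptor SMADs of BMPs, averaged 56.0 and 95.4 CPM in libraries labelled Ptpro-KO and 51.4 and 95.7 CPM in those labelled WT. Smad4, the partner shared by both branches, averaged 73.7 ± 11.6 CPM in libraries labelled Ptpro-KO and 64.1 ± 5.76 CPM in those labelled WT (SD, n = 3 each).

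The rarer SMADs varied more. Smad9, the least abundant BMP receptor SMAD, had 3.10, 2.21 and 6.80 CPM in libraries labelled Ptpro-KO, against 2.52, 1.59 and 2.53 CPM in those labelled WT (log2 fold change 0.86, SE 0.48, edgeR adjusted p = 0.325). Smad6, an inhibitory SMAD induced by BMPs, had 5.12, 6.12 and 12.4 CPM in libraries labelled Ptpro-KO, against 4.64, 6.46 and 5.02 CPM in those labelled WT (log2 fold change 0.56, SE 0.38, edgeR adjusted p = 0.419). For both, Ptpro-KO replicate 3 was the highest library, and without it the log2 fold changes were 0.26 for Smad9 and 0.06 for Smad6. Smad7, the inhibitory SMAD induced by TGF-beta, averaged 23.8 ± 5.12 CPM in libraries labelled Ptpro-KO and 26.0 ± 6.04 CPM in those labelled WT (SD, n = 3 each).

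Id genes encode inhibitors of basic helix-loop-helix factors and are textbook BMP targets, and edgeR called none of the 4, with 2 at an unadjusted p below 0.05 and 2, Id2 and Id4, called higher by DESeq2. Id2 had 46.3, 39.0 and 51.6 CPM in libraries labelled Ptpro-KO, against 16.5, 21.2 and 27.9 CPM in those labelled WT. Every library labelled Ptpro-KO was above every one labelled WT, the level was 2.09-fold higher, and the adjusted p was just over the threshold (log2 fold change 1.06, SE 0.22, edgeR adjusted p = 0.0589). Id1 had 33.0, 20.6 and 49.9 CPM in libraries labelled Ptpro-KO, against 45.5, 44.6 and 46.8 CPM in those labelled WT. The WT-labelled values sat within a narrow band, and Ptpro-KO replicate 3 was above it while the other 2 were below (log2 fold change -0.40, SE 0.31, edgeR adjusted p = 0.466).

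Id3 had 21.4, 16.1 and 53.2 CPM in libraries labelled Ptpro-KO, against 20.4, 34.8 and 42.0 CPM in those labelled WT, with no separation. Id4 had 4.04, 76.2 and 12.3 CPM in libraries labelled Ptpro-KO, against 3.68, 4.30 and 4.66 CPM in those labelled WT. A single library, Ptpro-KO replicate 2, stood at 18.9 times the lowest of its label, and the log2 fold change of 2.87 (SE 1.06, edgeR adjusted p = 0.166) was 0.93 without it. That library was also the 1 with 782 CPM of thyroid markers, and the part of that signal in the Id4 level was not tested.

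By FPKM, Id1 made up 36.2, 19.0 and 34.9% of the summed Id genes in libraries labelled Ptpro-KO, against 58.1, 47.7 and 43.2% in those labelled WT. Id2 made up 39.6, 27.6 and 26.6% in libraries labelled Ptpro-KO, against 15.1, 16.5 and 18.4% in those labelled WT. Neither share overlapped between labels, the Id1 share being lower and the Id2 share higher under the Ptpro-KO label. In Ptpro-KO replicate 2 Id4 alone made up 39.9% of the sum, against 2.54 and 4.74% in replicates 1 and 3 and 2.55, 2.498 and 2.26% in libraries labelled WT, and this lowers the shares of the other Id genes in that library.

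The 49 genes varied between libraries of 1 label more widely than tested genes as a whole. The median ratio of the highest to the lowest library was 1.87 for the 49 in libraries labelled Ptpro-KO and 1.59 in those labelled WT, beside 1.45 and 1.34 over all genes tested with reads in every library of the label. Within the Ptpro-KO label, replicates 1, 2 and 3 were highest for 16, 17 and 16 of the 49 and lowest for 16, 16 and 17. Within the WT label, replicates 1, 2 and 3 were highest for 19, 20 and 10 of the 49 and lowest for 15, 21 and 13, so WT replicate 2 was most often at an end. Over all genes tested, WT replicates 1, 2 and 3 were highest for 35.8, 34.5 and 29.7% and lowest for 33.3, 39.9 and 26.8%. WT replicate 2 was thus most often at an end there as well. The same shares for Ptpro-KO replicates 1, 2 and 3 were 29.8, 35.8 and 34.4% highest and 31.0, 33.8 and 35.2% lowest.

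**Figure D5:**
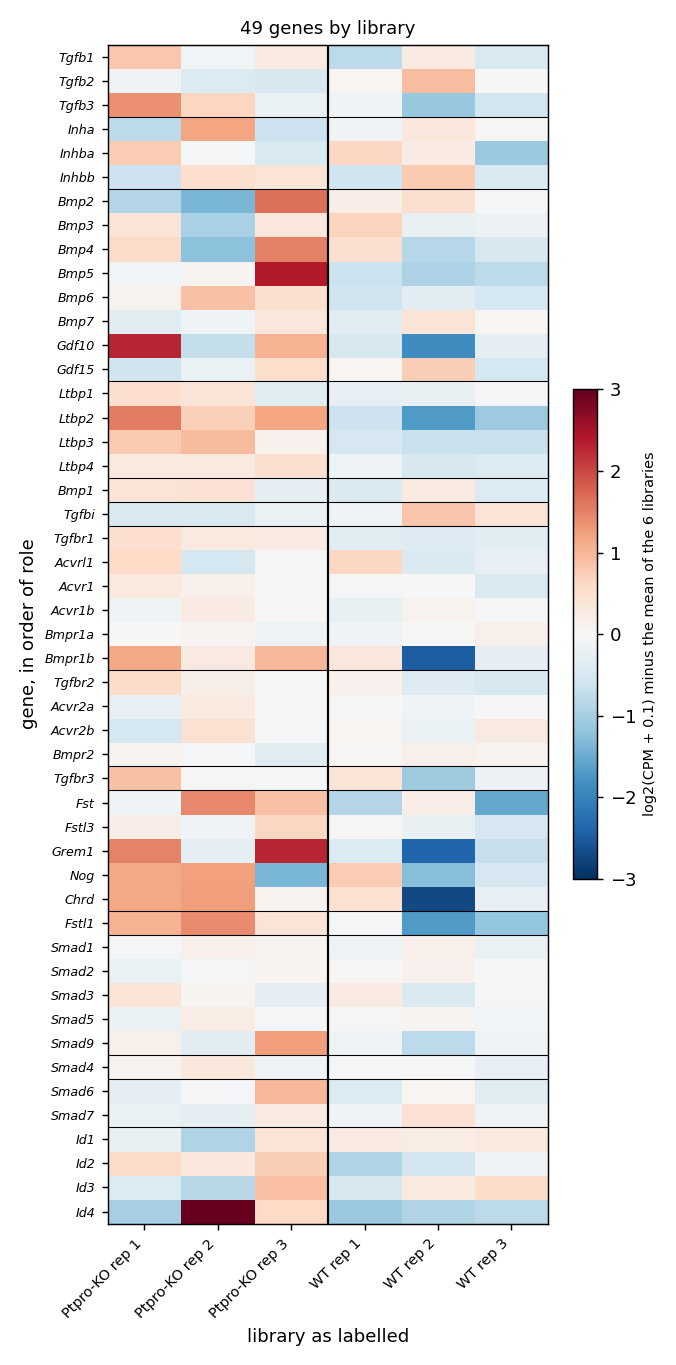
Level of each of the 49 genes in each library as log2(CPM + 0.1) minus the gene's mean over the 6 libraries, colours cut at 3 in either direction, libraries labelled Ptpro-KO on the left and WT on the right, genes ordered by role. The latent binding proteins and the antagonists are mostly above their mean on the left, most SMADs stay near it, and Id4 in Ptpro-KO replicate 2 and Bmp5 in Ptpro-KO replicate 3 stand out from their label.

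A wider list of 95 pathway genes was read in the same test, of which 73 passed the low-count filter, 4 were called higher and 4 lower. In all 23 of the 73 were separated upwards and 9 downwards, and the median log2 fold change was 0.24, beside 0.03 over all genes tested. Of all genes tested, edgeR called 1.81% higher and 2.29% lower, and 16.8% were separated upwards and 15.7% downwards. At an unadjusted p below 0.05 there were 25.0%. DESeq2 called 9.12% of its genes with an adjusted p higher and 7.44% lower. These shares stand beside the counts of each shorter list below. Of the 14 tested genes that hold or activate latent TGF-beta, 1 was called, Fbn2, a fibrillin of microfibrils, which had 8.64, 13.1 and 7.72 CPM in libraries labelled Ptpro-KO, against 1.80, 1.43 and 1.71 CPM in those labelled WT. Its level was 5.95-fold higher (log2 fold change 2.57, SE 0.28, edgeR adjusted p = 0.0173), and it passed in 1 of the 6 fits that left out a library and with the sex term. The median over those 14 genes was 0.96, with 6 separated upwards and 1 downwards. At an unadjusted p below 0.05, 8 of the 14 were higher and 1 was lower, and DESeq2 called 6 genes of this list higher and 0 lower.

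Among 16 genes known as common TGF-beta targets, 2 were called higher and 2 lower, with a median of 1.69. Col1a1, a chain of type I collagen, had 496, 712 and 417 CPM in libraries labelled Ptpro-KO, against 97.7, 69.7 and 80.4 CPM in those labelled WT (log2 fold change 2.71, SE 0.26, edgeR adjusted p = 0.0126). Col1a2, the other chain, had 669, 858 and 501 CPM in libraries labelled Ptpro-KO, against 211, 80.2 and 135 CPM in those labelled WT (log2 fold change 2.25, SE 0.40, edgeR adjusted p = 0.0434). Both collagens are also among the 8 fibroblast markers, whose sum was higher in all 3 libraries labelled Ptpro-KO, and that overlap in definition means the lists are not independent.
The 2 called lower were Cdkn1a, the cell cycle inhibitor p21, with 37.3, 45.6 and 41.6 CPM in libraries labelled Ptpro-KO, against 71.4, 69.2 and 60.3 CPM in those labelled WT (log2 fold change -0.69, SE 0.12, edgeR adjusted p = 0.0423), and Snai2, the transcriptional repressor Slug, with 16.3, 18.6 and 15.2 CPM in libraries labelled Ptpro-KO, against 42.4, 49.9 and 34.8 CPM in those labelled WT (log2 fold change -1.34, SE 0.17, edgeR adjusted p = 0.0240). Calls thus went in both directions, while of all 16 targets 13 had positive and 3 negative fold changes, 9 were separated upwards and 2 downwards, and DESeq2 called 9 higher and 2 lower. When each library was left out in turn, Col1a1 passed in 3 of 6 fits, Snai2 in 1, and Col1a2 and Cdkn1a in none, with adjusted p of 0.0564 to 0.181 for Col1a2 and 0.0689 to 0.138 for Cdkn1a. With the sex term in the edgeR fit Col1a1 was still called, and Col1a2, Cdkn1a and Snai2 were not.

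Of 7 tested BMP target genes, 1 was called higher and 2 lower. At an unadjusted p below 0.05, 2 were higher and 2 lower, and DESeq2 called 2 genes of this list higher and 2 lower. Runx2, a factor of the osteoblast lineage, had 31.2, 26.8 and 13.5 CPM in libraries labelled Ptpro-KO, against 3.02, 4.46 and 4.13 CPM in those labelled WT (log2 fold change 2.62, SE 0.37, edgeR adjusted p = 0.0290). Dlx3, a homeobox factor of stratified epithelium, had 1.91, 1.501 and 1.77 CPM in libraries labelled Ptpro-KO, against 5.83, 5.70 and 5.13 CPM in those labelled WT (log2 fold change -1.68, SE 0.21, edgeR adjusted p = 0.0226), and its relative Dlx5 had 0.221, 0.375 and 0.158 CPM in libraries labelled Ptpro-KO, against 1.36, 2.67 and 1.92 CPM in those labelled WT (log2 fold change -2.95, SE 0.45, edgeR adjusted p = 0.0325). All of these had labels that did not overlap, and with a library left out Runx2 and Dlx3 each passed in 1 of 6 fits and Dlx5 in none. With the sex term Dlx3 and Dlx5 were still called and Runx2 was not.

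No gene was called by edgeR among the 7 tested further ligands, the 13 tested further antagonists and co-receptors or the 16 tested SMAD regulators. At an unadjusted p below 0.05 there were 1, 1 and 5 such genes in these lists, and DESeq2 called 1 ligand, 1 antagonist or co-receptor and 3 SMAD regulators. The median log2 fold change of the SMAD regulators was -0.03.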

How the data were processed

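RNA-seq read counts per transcript were the values deposited by the authors in 6 per-sample tables, and the same tables hold RPKM that equal those counts scaled by length and depth, per the file headers and values. A further deposited table holds the authors' FPKM per gene, used to compare levels between genes. The submitters' processing notes list Bowtie 0.12.2 and the genome build mm10. Neither strand nor the counting tool is stated there or in the labels. Across the 2 tables of the whole series 4 value columns were not used. No reads lacked a gene name.

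Counts of 100249 transcripts were summed to 41253 symbols, filtered with filterByExpr (minimum count 10, total 15), scaled by TMM and fitted with edgeR 4.0.16 (R 4.3.3, glmQLFit and glmQLFTest, 3 libraries labelled Ptpro-KO minus 3 labelled WT, no covariate). The common biological coefficient of variation was 0.398. A standard error is the log2 fold change divided by the square root of F. Benjamini-Hochberg adjustment ran over 17663 genes. DESeq2 1.42.0 (its missing adjusted p-values stay missing), limma 3.58.1 on log2(FPKM + 1), other scalings, no low-count filter, a sex term from sex-linked reads, the replicate block and each library left out were the alternatives. In simulated counts for 17370 genes, the edgeR step found 6 of the 100 genes given a 2-fold change, 65 of the 100 given a 4-fold change and called 6 unchanged genes. The changed genes were drawn only from those above a minimum mean CPM, so the rates of recovery do not cover genes of low level. Far fewer genes were changed there than reached an unadjusted p below 0.05 in the data, so these rates need not hold for the data.

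No libraries were duplicates, since pairs of a label differed by a chi-square of 66.9 to 307 per degree of freedom over genes with at least 20 reads. P-values measure the spread between these libraries, 1 per mouse by the design text. The text names all 49 members, pathway genes past the threshold, the most abundant gene of each marker list it describes and Ptpro, and other genes it names were chosen after their values were seen. Members and lists were chosen with earlier results of these data known. Gene positions are from GENCODE M21 (GRCm38, the build also called mm10). With strand not known, 14 of the 49 genes share exon sequence with a gene on the opposite strand and 2 with another on the same strand, and reads of such pairs cannot be told apart.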

Additional observations from a re-analysis of the deposited data

How the results depend on the processing

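Of the 49 genes, 4 were called higher and 0 lower by edgeR, and 4 higher with RLE size factors or upper-quartile scaling. The count was 3 without the low-count filter, 11 higher and 1 lower (Tgfbi) with DESeq2, 1 with a term for mouse sex (Ltbp2), 2 with limma on log2(FPKM + 1), 2 with a pseudocount of 0.1 and 3 with limma and no filter. Leaving out 1 library gave 0 to 2 members called higher and 0 lower, with 7 to 12 higher and 0 to 3 lower at an unadjusted p below 0.05. Over those fits adjusted p was 0.0576 to 0.153 for Ltbp2, 0.0240 to 0.175 for Ltbp3, 0.0642 to 0.178 for Ltbp4 and 0.0443 to 0.149 for Tgfbr1. Over all genes, 320 higher and 405 lower calls became 1734 and 1415 with DESeq2 (9.12% and 7.44% of 19020 genes with an adjusted p) and 64 and 122 with the sex term. The lower calls were 248 with limma at the pseudocount of 0.1. With a library left out they numbered 0 to 253 higher and 0 to 243 lower, with 3078 to 4412 genes at an unadjusted p below 0.05. Of the pathway list, 4 higher and 4 lower calls became 21 higher with DESeq2, 2 higher and 2 lower with the sex term, and 0 to 4 higher and 0 to 2 lower with a library left out. The cause of these moves was not tested, and each fit without a library rests on 5 libraries. The 38 single genes compared were the 29 members with a change of at least 0.25 in size, the pathway genes called by edgeR, and Ptpro. Of the 20 members left out, 16 took another sign under at least 1 alternative. Over 15 alternatives the 38 genes never changed direction, which their choice by size or call favours. In 469 of these comparisons they also kept their side of the threshold, in 90 a call was lost and in 11 one was gained. The 469 include genes that were not called by edgeR and stayed uncalled, while all 90 losses fall on the genes it called. Of the 15 alternatives, Ltbp2 was called in 9, Tgfbr1 in 8, Ltbp3 in 5 and Ltbp4 in 4. Col1a1 was called in 12, Fbn2, Snai2 and Dlx3 in 9 each, Dlx5 in 8, Runx2 in 7, and Col1a2 and Cdkn1a in 5 each.

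With the replicate number as a block, 1 member was called higher (Ltbp2), 2 pathway genes higher (Col1a1 and Timp1) and 1 lower (Snai2), and 133 genes higher and 104 lower in all. The numbers do not pair the mice in the labels, and the deviations of same-numbered libraries from their label means correlated at 0.54, 0.08 and -0.24. Ptpro-KO replicate 1 correlated best with WT replicate 1, while Ptpro-KO replicate 3 correlated best with WT replicate 2 at 0.41.

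With common biological variation of 0.398 and 3 libraries a label, changes near 2-fold could be missed. Ltbp4 and Tgfbr1 passed at 1.63-fold and 1.64-fold, while Id2 at 2.09-fold and Bmp6 at 2.05-fold did not. Genes that did not pass are thus not shown to be equal between labels.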
